A study of Caenorhabditis elegans with 44 samples.

Results

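The 135 genes described here are C. elegans protein-coding genes that carry only a sequence name, such as Y47G7B.2, in place of a gene name. Their messages were more abundant on auxin than on ethanol in the strain where auxin targets the heat shock factor HSF-1 for degradation. For a few, auxin had an effect of like size or larger in the strain without a tagged HSF-1. The 135 genes were chosen from 3457 protein-coding genes with a sequence name alone that were listed at both later times. The series held 11430 identifiers in all. The choice used the mean of the HSF-1-AID libraries on auxin minus the mean of the HSF-1-AID libraries on ethanol, which had to be at least 0.4 at 16 h and at least 0.6 at 24 h. These differences are in log2 CPM, the log2 of a gene's reads scaled to a common library size, so 1 unit is a doubling. Because the depletion values at 16 h and 24 h made the choice, they are given as a description, and tests are given only for the libraries at 8 h and for the effect of auxin in the TIR1-only strain.

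RNA was sequenced from whole young adults after 8 h, 16 h or 24 h on auxin or ethanol plates. All 44 libraries carry the label NHS in their titles, taken here to mean no heat shock. Strain JTL621 (HSF-1-AID) carries hsf-1::aid::gfp, so that HSF-1 bears a degron, and ieSi38, in which the germline promoter sun-1p drives TIR1::mRuby with the sun-1 3'UTR. Strain CA1199 (TIR1-only) carries ieSi38 without the tagged hsf-1, and both strains carry unc-119(ed3) together with the Cbr-unc-119(+) rescue. The groups were HSF-1-AID on auxin, HSF-1-AID on ethanol, TIR1-only on auxin and TIR1-only on ethanol, with 4 libraries each at 8 h and 16 h and 3 each at 24 h. Synchronized larvae had grown for 51 h before about 120 worms per condition were moved. Whether the libraries of a group came from separate cultures is not stated, and the p-values below therefore rest on a spread among libraries that may be technical.

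HSF-1 is the transcription factor that switches on chaperone genes after heat shock, and in the worm it is also needed for development and for the germline without stress. In the degron system, auxin lets the plant F-box protein TIR1 bring a tagged protein to a ubiquitin ligase, and the proteasome then degrades it. Since TIR1 was made from a germline promoter while RNA came from whole animals, a difference in these bulk libraries can arise in germ cells or in other tissues, and fewer cells of a type and less RNA per cell cannot be told apart. The degron acts on the protein, which was not measured. The hsf-1 message does not check the depletion: it was at 46.8 ± 5.30 CPM at 8 h in HSF-1-AID on auxin, against 45.8 ± 7.62 CPM on ethanol (SD, n = 4 each). At 16 h it was at 70.8 ± 1.16 CPM in HSF-1-AID on auxin, against 51.2 ± 3.34 CPM on ethanol, and at 65.9 ± 3.33 CPM in TIR1-only on auxin, against 67.9 ± 2.45 CPM on ethanol (SD, n = 4 each). At 24 h it was at 77.3 ± 3.43 CPM in HSF-1-AID on auxin, against 53.8 ± 6.15 CPM on ethanol, and at 68.8 ± 1.16 CPM in TIR1-only on auxin, against 69.6 ± 5.02 CPM on ethanol (SD, n = 3 each). HSF-1-AID on ethanol was the lowest group at both of these times.

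Libraries at 8 h held between 12.5 and 50.7 M recovered reads. The range was 31.01 to 57.7 M among 16 h libraries and 13.3 to 24.4 M among those of 24 h. Ribosomal RNA made up 1.26% to 31.4% of reads at 8 h, 1.16% to 3.43% at 16 h and 3.78% to 18.3% at 24 h. The highest share was in TIR1-only ethanol replicate 3 at 8 h and in HSF-1-AID ethanol replicate 3 at 24 h. Markers of other cell states moved with depletion. The 12 oocyte and eggshell markers, all listed, summed to 8422 to 9748 CPM in HSF-1-AID on auxin at 16 h, against 10882 to 12486 CPM on ethanol, and 9 of 12 were lower at an adjusted p under 0.05. At 24 h they summed to 3791 to 5512 CPM on auxin, against 10907 to 13246 CPM on ethanol, and 10 of 12 were lower. The embryo markers summed to 7.69 to 8.91 CPM on auxin at 24 h, against 32.7 to 39.0 CPM on ethanol, with 4 of 13 listed and 3 of these lower. Of 12 general germline markers 3 were higher and 1 lower at 16 h, and 2 were higher and 3 lower at 24 h. Among neuronal markers none of 9 was called at 16 h, and 4 of 10 were higher at 24 h. Of 13 intestinal markers 5 were lower at each time, of 11 muscle markers 2 were lower at 16 h and none at 24 h, and of 5 cuticle markers 1 was lower at each time. The sperm list had 2 of 16 genes listed and 1 lower at each time, the pharynx list had 2 of 5 listed and none called, and the list for somatic gonad and coelomocytes had 4 of 6 listed and 1 lower at 16 h. What part these shifts had in the levels of the 135 genes was not tested. None of the tested markers on any list was called at 8 h or in the TIR1-only strain at any time.

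Both thresholds were met by 3.91% of the unnamed protein-coding genes, by 3.45% of the 6173 protein-coding genes with another name (213 genes) and by 3.84% of all 10001 genes in both tables. By the mirrored thresholds 248 unnamed genes were lower. The median of the 135 genes was 0.63 at 16 h, with a range of 0.40 to 2.70, and 0.99 at 24 h, with a range of 0.61 to 4.23, beside medians of -0.07 and -0.02 over all 3457 unnamed genes. For 128 of the 135 genes the difference was larger at 24 h than at 16 h. The other 7 included H40L08.3, at 2.04 at 16 h and 1.63 at 24 h, and Y55F3AM.21, at 1.23 and 0.81. The threshold of the choice was itself higher at 24 h. Among all genes listed, 17.5% had a difference of at least 0.4 at 24 h, against 6.64% at 16 h. Nothing is therefore read from the count of 128. Many of the genes lay near the lower limit: 72 had a 24 h difference under 1, 30 lay between 1 and 1.5, 22 between 1.5 and 2, and 11 at 2 or more.

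The thresholds divide a continuous range. Just inside the 16 h threshold were Y70G10A.4 (0.401), C25G4.2 (0.404) and R12E2.13 (0.406), and just outside it, with the 24 h condition met, were Y54G2A.36 (0.397), T09A5.5 (0.393) and F22D6.9 (0.393). Just inside the 24 h threshold were Y54E2A.4 (0.613), T04C9.1 (0.619) and Y48C3A.14 (0.621), and just outside it were Y37E11AM.4 (0.597), R119.3 (0.595) and Y48G10A.2 (0.581). In all, 167 unnamed genes met only the 24 h condition and 84 only that of 16 h.

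**Figure D1:**
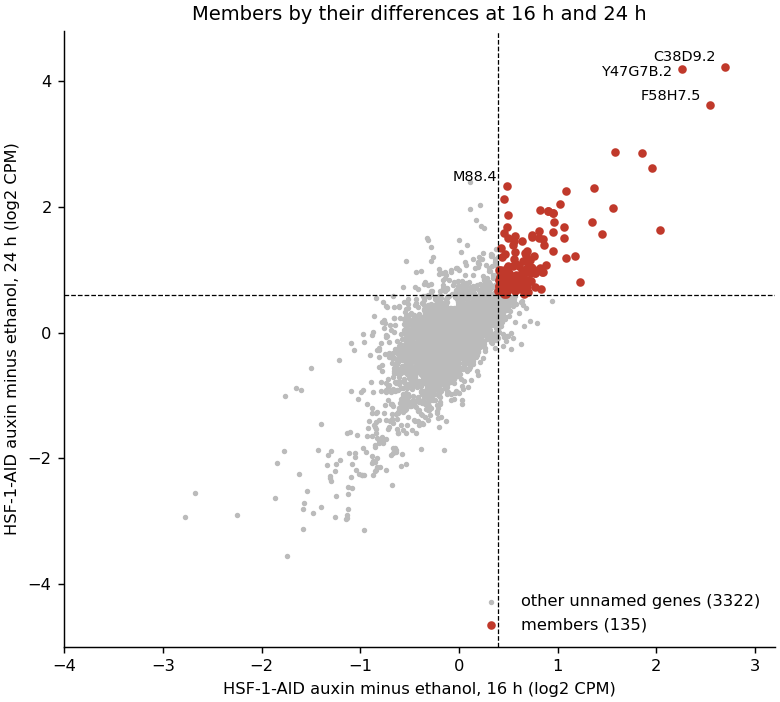
Difference between HSF-1-AID libraries on auxin and on ethanol at 16 h (x axis) and 24 h (y axis), in log2 CPM, for the 135 genes (red) and the 3322 other unnamed protein-coding genes (grey); dashed lines are the thresholds of 0.4 and 0.6. The 135 genes fill the upper right corner, with C38D9.2 and Y47G7B.2 farthest out.

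The largest differences belonged to genes at a low level in every other group. C38D9.2 (WBGene00008010, V:17567150-17571742, forward strand, build WBcel235) had 7.91, 9.48 and 6.48 CPM in HSF-1-AID on auxin at 24 h, against 0.103, 0.398 and 0.573 CPM on ethanol. At 16 h it had 3.05, 3.93, 3.08 and 1.47 CPM on auxin, against 0.484, 0.519, 0.347 and 0.230 CPM on ethanol. The groups did not overlap at either time, and all TIR1-only libraries stayed between 0.180 and 0.752 CPM. The ethanol values at 24 h rest on 2 to 8 reads a library, so the difference of 4.23 is shrunk by the prior count in the deposited values.

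Y47G7B.2 (WBGene00021654, II:2705920-2708014, reverse strand) reached the highest level of the 12 genes with the largest 24 h differences. It had 96.4, 69.0 and 87.3 CPM in HSF-1-AID on auxin at 24 h, against 4.17, 4.90 and 4.23 CPM on ethanol. At 16 h it had 16.7, 36.9, 14.7 and 12.7 CPM on auxin, against 3.75, 4.71, 3.13 and 3.80 CPM on ethanol. At 8 h there was no such gap: it had 2.10, 1.6, 1.95 and 1.89 CPM on auxin, against 2.16, 1.57, 1.40 and 1.95 CPM on ethanol. F58H7.5 (WBGene00019070, IV:919990-920808, forward strand), a gene with a single exon of 819 bp, had 20.2, 15.8 and 20.4 CPM at 24 h on auxin, against 0.978, 1.99 and 1.43 CPM on ethanol. At 16 h F58H7.5 had 5.27, 8.10, 5.61 and 4.03 CPM on auxin, against 0.841, 1.36, 0.833 and 0.724 CPM on ethanol. Replicate 2 was the highest of the 16 h auxin libraries for all 3 genes, and replicate 4 the lowest.

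**Figure D2:**
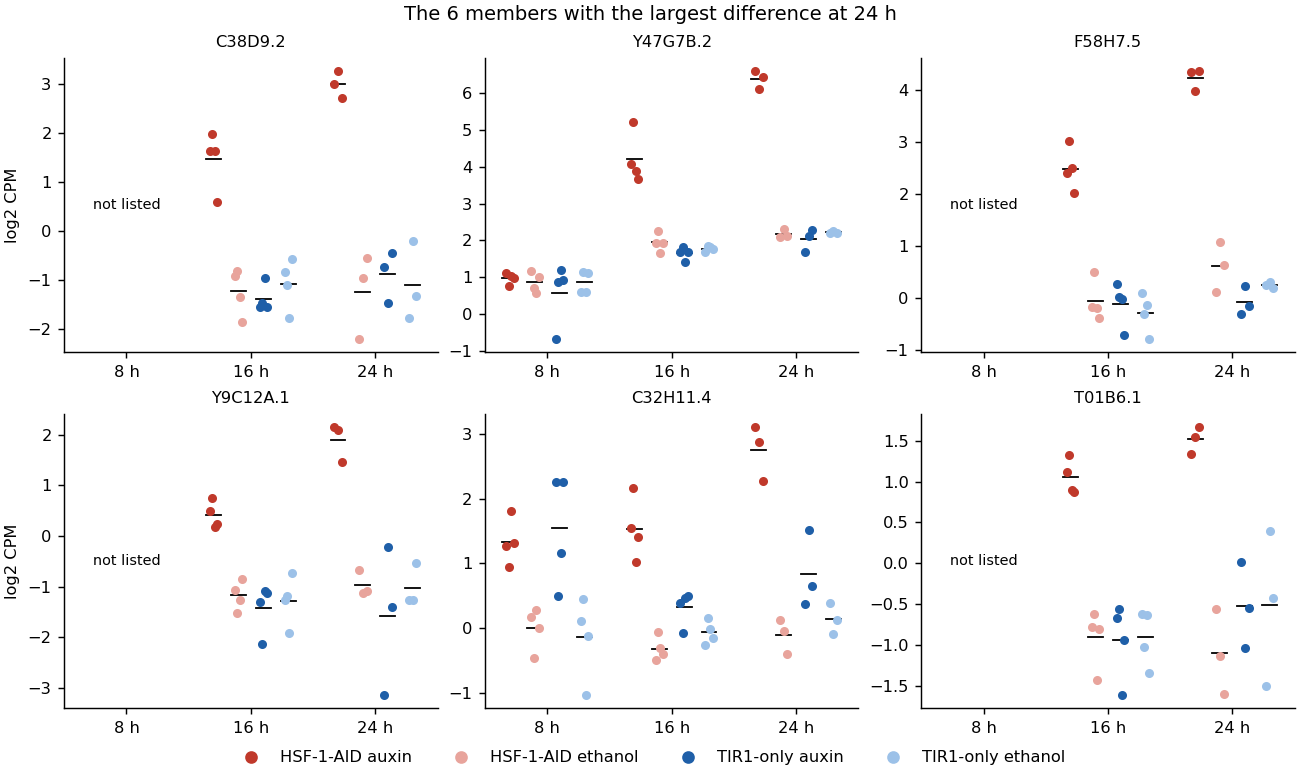
Deposited log2 CPM in each library for the 6 genes with the largest difference at 24 h; points are libraries and bars are group means, for HSF-1-AID on auxin and ethanol and TIR1-only on auxin and ethanol at 8, 16 and 24 h. At 16 h and 24 h the HSF-1-AID auxin libraries lie above the other groups, and 4 of the 6 genes were not listed at 8 h.

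The next genes in order of size were low in level. Y9C12A.1 (24 h difference 2.87) had 4.33, 4.17 and 2.65 CPM in HSF-1-AID on auxin at 24 h, against 0.515, 0.342 and 0.358 CPM on ethanol, and no read in TIR1-only auxin replicate 1. T01B6.1 (2.62), whose span of 13 kb on the X chromosome holds neuropeptide-like genes on the opposite strand, had 2.41, 2.82 and 3.06 CPM on auxin, against 0.566, 0.342 and 0.215 CPM on ethanol. M88.4 (2.33) was a late one: at 24 h it had 3.58, 5.15 and 3.82 CPM on auxin, against 0.875, 0.683 and 0.645 CPM on ethanol, while its difference at 16 h was 0.48. The next 3 genes are given by their differences. M02E1.3, with an annotated coding length of only 57 bp, likewise had 0.46 at 16 h and 2.12 at 24 h. F59B1.10 had 1.37 at 16 h and 2.31 at 24 h, and C08G9.2, one of the longest of the genes with 26 exons, had 1.56 and 1.99. R10F2.6 was at 19.9, 22.2 and 21.8 CPM in HSF-1-AID on auxin at 24 h, against 4.53, 5.92 and 4.87 CPM on ethanol. These genes, apart from R10F2.6, stayed under 10 CPM in all auxin libraries. K09H9.7 (WBGene00019598, I:3150341-3152003, reverse strand) came next in level after Y47G7B.2 among these 12. It had 91.3, 72.6 and 72.5 CPM in HSF-1-AID on auxin at 24 h, against 16.8, 15.1 and 16.9 CPM on ethanol, and dscc-1, a gene on the opposite strand that overlaps it, had a difference of -0.48.

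The genes lowest in HSF-1-AID on ethanol had the largest median difference at 24 h, 1.66 for the 20 genes under 1 CPM. Above that level there was no steady order: the median was 0.99 for 32 genes at 1 to 5 CPM, 1.05 for 36 genes at 5 to 20 CPM, 0.86 for 38 genes at 20 to 100 CPM and 0.90 for 9 genes at 100 CPM or more. The ethanol level grouped here is also the term subtracted in the difference, and the choice used that difference. A larger difference at the lowest level is therefore favoured by the choice, and nothing is read from this order. Per length, the highest genes in HSF-1-AID on ethanol at 16 h were F49C12.11, Y57E12AL.6, R02F2.1, Y59A8B.12 and R12E2.13, at 428, 237, 181, 110 and 108 CPM per kb of exon. F49C12.11 had 239, 225 and 233 CPM in HSF-1-AID on auxin at 24 h, against 148, 114 and 95.2 CPM on ethanol. Y57E12AL.6 had 224, 212 and 239 CPM on auxin, against 125, 105 and 114 CPM on ethanol. R02F2.1 had 374, 470 and 471 CPM on auxin, against 230, 272 and 287 CPM on ethanol. In all 3 the groups did not overlap at 16 h or 24 h.

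RefSeq gives 9 of the genes a symbol. C35A5.8 is xpo-7, which encodes exportin 7, a nuclear transport receptor, and its differences were 0.59 at 16 h and 0.87 at 24 h. Y48C3A.14 is top-3B, for topoisomerase III beta, with 0.46 and 0.62. C25H3.11 is vps-13D, of the VPS13 family of lipid transfer proteins, and is the longest of all at 10424 bp of exon, with 0.47 and 0.94. F14D12.1 is soc-3, known in C. elegans as a signalling adaptor downstream of the FGF receptor, with 0.47 and 0.99. The other 5 are Y76B12C.8 (nssp-37), F59G1.8 (egc-3), Y43C5A.7 (nssp-46), Y48G10A.3 (ndrr-1) and M04B2.2 (thum-3), at 0.74, 0.50, 0.41, 0.50 and 0.41 at 16 h and at 1.52, 1.06, 1.0, 0.95 and 0.89 at 24 h. None of the 9 was among the 12 largest.

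Across libraries the 135 genes stood apart in HSF-1-AID on auxin at 16 h and 24 h. Their median against the HSF-1-AID ethanol mean was 0.53 to 0.76 in the HSF-1-AID auxin libraries at 16 h and 0.98 to 1.07 at 24 h. It was -0.03 to 0.05 in the HSF-1-AID ethanol libraries at 16 h and -0.00 to 0.04 at 24 h. In TIR1-only libraries it lay between -0.06 and 0.08 at both times. In 114 of 135 genes every auxin library was above every ethanol library of HSF-1-AID at 16 h, where 22.5% of all genes had such a gap, and in 130 of 135 at 24 h, where 23.7% had. Every HSF-1-AID auxin library was above all other libraries for 107 genes at 16 h (17.6% of all genes) and for 124 at 24 h (18.1%). The libraries are those of the choice, so nothing is read from these counts. Of the 11 genes that fell short at 24 h, F13D11.4, F55G11.2 and T16G1.6 were also higher on auxin without a tagged HSF-1.

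**Figure D3:**
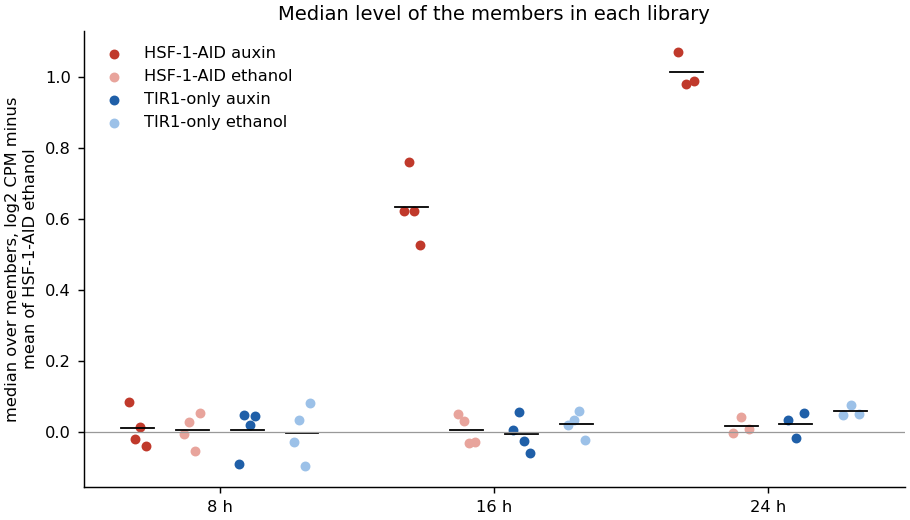
Median over the genes of log2 CPM minus the mean of HSF-1-AID on ethanol at the same time, for each library (points) with group means (bars); 16 of the 135 genes were not listed at 8 h. The HSF-1-AID auxin libraries stand apart at 16 h (0.53 to 0.76) and 24 h (0.98 to 1.07) but not at 8 h (-0.04 to 0.08).

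At 8 h the genes that were listed showed no shift as a set. Of the 11 genes with a 24 h difference of 2 or more, 4 were listed, so the 8 h values leave out most of the largest. Of the 135 genes 16 were not listed at 8 h, among them C38D9.2, F58H7.5, Y9C12A.1, T01B6.1, M88.4, F59B1.10 and M02E1.3, and all the others were tested. Their median depletion difference was 0.01, with 62 of the genes tested above 0, beside a median of -0.01 over all 10971 genes tested. At an adjusted p under 0.05, 2 of them were higher and none was lower, where 0.246% of all genes were called higher and 0.0365% lower. F55G11.2 (WBGene00010123, IV:12967445-12969289, reverse strand) had 11.2, 4.96, 6.84 and 4.98 CPM in HSF-1-AID on auxin, against 0.557, 1.84, 0.807 and 0.838 CPM on ethanol (difference 2.74 ± 0.41 SE, adjusted p = 0.00544). T16G1.6 (WBGene00011800, V:12935538-12937174, reverse strand) had 12, 13, 12.9 and 6.40 CPM on auxin, against 1.25, 2.38, 1.99 and 0.692 CPM on ethanol (2.83 ± 0.46, adjusted p = 0.0101). In both genes the groups did not overlap. Without HSF-1-AID auxin replicate 2 or 3, T16G1.6 had an adjusted p of 0.0569 or 0.0549 and 1 gene remained, and without the 4 libraries numbered 4, which are much deeper than the rest, F55G11.2 (0.0966) and T16G1.6 (0.105) both missed the threshold. With library quality weights there were 6 calls, all higher.

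An unadjusted p under 0.05 was reached by 8 of the genes tested at 8 h (6.72%), where 4.14% of all genes did. F13D11.4 (1.03 ± 0.22, adjusted p = 0.0560), C32H11.4 (1.34 ± 0.38, 0.450), ZK742.4 (0.82 ± 0.25, 0.521), F49F1.7 (1.02 ± 0.36, 0.909) and F56A4.3 (0.71 ± 0.27, 0.995) were on the higher side, and Y71F9AL.8 (-0.20 ± 0.09, 0.995) on the lower. The 7 with positive values were also the 7 genes whose groups did not overlap upward, 5.88% of those listed beside 1.6% of all genes. In the downward direction 1 gene, C30F12.3, had such a gap, where 1.78% of all genes did. Among the 7 with positive values, C32H11.4 was the one that also belonged to the 12 largest at 24 h. For the others of those 12 that were listed, the 8 h differences were 0.05 for K09H9.7, 0.06 for R10F2.6, 0.10 for Y47G7B.2 and 0.23 for C08G9.2.

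The TIR1-only strain shows what auxin did where HSF-1 had no degron. For most of the 135 genes no change passed the test. The median auxin difference was 0.02 at 8 h, -0.03 at 16 h and -0.04 at 24 h, beside -0.01, -0.01 and -0.02 over all genes tested. At 8 h 3 of the genes tested were higher at an adjusted p under 0.05 and none was lower, where 0.237% of all genes were called higher and 0.00911% lower, and 7 had an unadjusted p under 0.05, where 2.32% of all genes did. At 16 h 2 of 135 were higher and none was lower, where 0.138% of all genes were called higher and 0.00983% lower, and 15 had an unadjusted p under 0.05, where 6.37% of all genes did. At 24 h limma called none of 135, where 0.00961% of all genes were called higher, and limma-voom also called none. At that time 8 genes had an unadjusted p under 0.05, all higher, where 2.45% of all genes did. C38D9.2, Y9C12A.1, M02E1.3 and C53H9.4 are among genes under 1 CPM at 24 h in all libraries but those of HSF-1-AID on auxin. These genes passed the filter only through libraries that chose them. Their TIR1-only values lie near the floor and could hardly give a call. With the replicate number as a block, which paired the libraries at 24 h, 3 of 135 genes were called higher at that time, where 0.279% of all genes were. Auxin and ethanol libraries did not overlap upward for 4 genes at 8 h (0.829% of all genes), 4 at 16 h (1.62%) and 7 at 24 h (2.82%). Downward there were none at 8 h (0.547%), 2 at 16 h (1.13%) and 5 at 24 h (2.96%).

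T16G1.6 was called at both 8 h and 16 h. It had 18.1, 6.22, 7.26 and 7.02 CPM in TIR1-only on auxin at 8 h, against 1.88, 1.91, 0.411 and 1.32 CPM on ethanol (2.78 ± 0.46, adjusted p = 0.0121). At 16 h it had 6.55, 3.76, 6.02 and 3.90 CPM on auxin, against 1.6, 1.72, 1.54 and 2.27 CPM on ethanol (1.45 ± 0.24, adjusted p = 0.0167). At 24 h it had 13.1, 12.5 and 10.3 CPM on auxin, against 3.42, 5.34 and 3.90 CPM on ethanol (1.5 ± 0.24, adjusted p = 0.171, and 0.000911 with the block). The groups did not overlap at any of the 3 times. In HSF-1-AID at 24 h, T16G1.6 had 11.8, 13.5 and 7.20 CPM on auxin, against 8.18, 5.98 and 5.30 CPM on ethanol, groups that did overlap. Its difference in HSF-1-AID was 0.64 at 16 h and 0.70 at 24 h, smaller than in TIR1-only at both times.

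F55G11.2 had 13.8, 3.08, 5.76 and 10.8 CPM in TIR1-only on auxin at 8 h, against 1.07, 1.46, 1.03 and 1.21 CPM on ethanol (2.53 ± 0.41, adjusted p = 0.0116). Its auxin difference was 0.96 ± 0.21 at 16 h (adjusted p = 0.206) and 1.82 ± 0.38 at 24 h (adjusted p = 0.484, and 0.00351 with the block). In HSF-1-AID the difference of F55G11.2 was 0.86 at 16 h and 1.49 at 24 h. F13D11.4 (WBGene00017429, X:5831929-5834805, reverse strand) had 3.18, 2.54, 4.34 and 4.20 CPM on auxin at 8 h, against 1.63, 1.91, 1.71 and 1.25 CPM on ethanol (1.08 ± 0.22, adjusted p = 0.0461). At 16 h F13D11.4 had 2.56, 1.53, 1.92 and 2.54 CPM on auxin, against 1.11, 0.731, 0.920 and 1.18 CPM on ethanol (1.07 ± 0.19, adjusted p = 0.0340). In HSF-1-AID the difference of F13D11.4 was 0.81 at 16 h and 1.52 at 24 h. For both genes every auxin library was above every ethanol library in TIR1-only at all 3 times. The third gene called with the block at 24 h was F49F1.7, with 2.35, 2.30 and 2.02 CPM on auxin, against 0.60, 1.35 and 0.803 CPM on ethanol (1.24 ± 0.25, adjusted p = 0.0481).

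These calls lean on single libraries. At 8 h no gene was called without TIR1-only auxin replicate 1 and only T16G1.6 without TIR1-only auxin replicate 4 or ethanol replicate 3, while 4 were called without auxin replicate 2. At 16 h none was called without auxin replicate 1 or 3 or without ethanol replicate 1, 2 or 3, and T16G1.6 alone without auxin replicate 4. C32H11.4 stood between the groups of genes: in TIR1-only at 8 h it had 4.73, 1.33, 2.15 and 4.71 CPM on auxin, against 1.0, 1.29, 0.411 and 0.842 CPM on ethanol (1.69 ± 0.38, adjusted p = 0.137). At 24 h it had 8.50, 7.26 and 4.72 CPM in HSF-1-AID on auxin, against 0.978, 0.854 and 0.645 CPM on ethanol, while TIR1-only libraries had 1.18, 2.74 and 1.45 CPM on auxin, against 1.20, 0.827 and 0.975 CPM on ethanol.

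**Figure D4:**
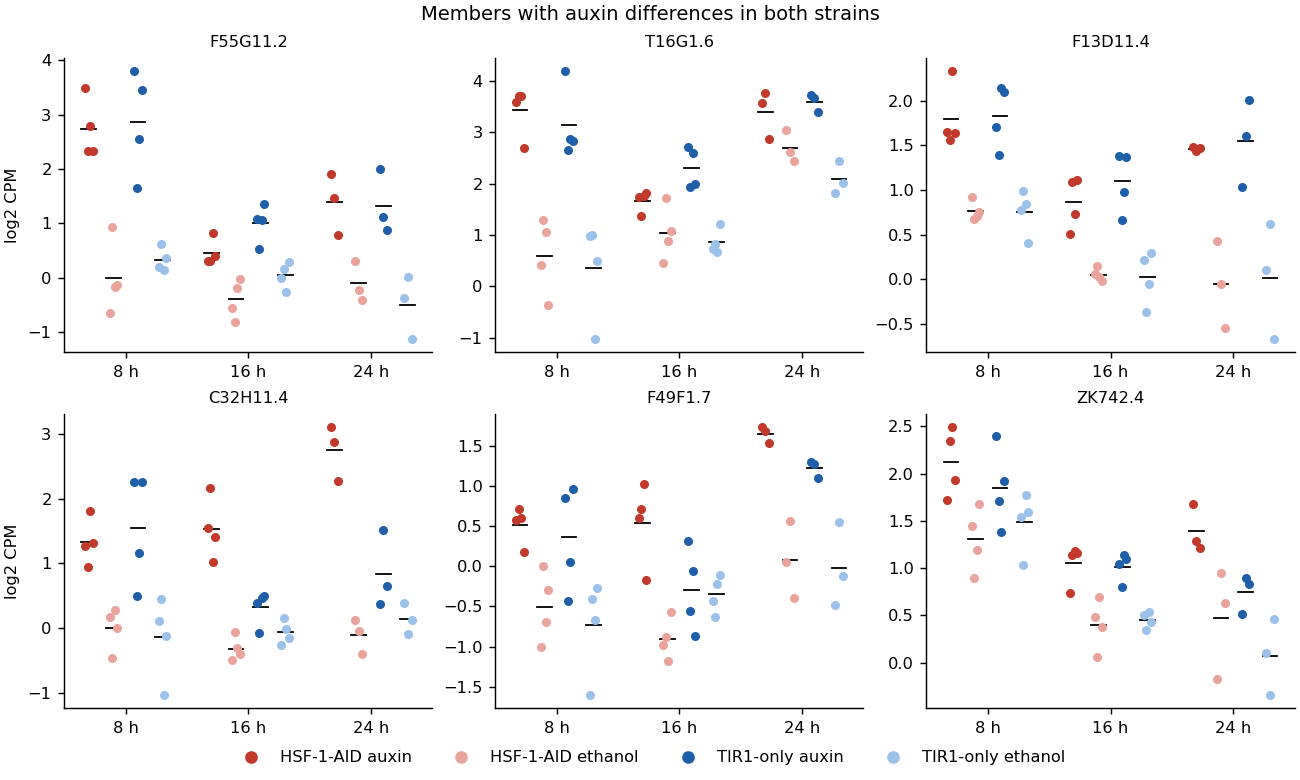
Deposited log2 CPM in each library for 6 genes, at 8, 16 and 24 h. Points are libraries and bars are group means, for HSF-1-AID on auxin and ethanol and TIR1-only on auxin and ethanol. With all libraries in the fit, F55G11.2, T16G1.6 and F13D11.4 were called for auxin in TIR1-only. F49F1.7 was called there only at 24 h with the block, and C32H11.4 and ZK742.4 were not called there. For F55G11.2, T16G1.6 and F13D11.4 the auxin libraries of TIR1-only lie above its ethanol libraries at each time, while C32H11.4 is highest in HSF-1-AID on auxin at 24 h.

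A direct test of the auxin effect in HSF-1-AID minus that in TIR1-only at 8 h called none of the genes tested with limma, where 0.00911% of all genes were called lower, and none had an unadjusted p under 0.05, where 3.45% of all genes did. The median of this difference was -0.03. For F55G11.2 the auxin effects were 2.74 in HSF-1-AID and 2.53 in TIR1-only, and for T16G1.6 they were 2.83 and 2.78. On ethanol at 8 h, HSF-1-AID against TIR1-only called none of them with limma, where 0.00911% of all genes were called lower, and 1 gene, C33B4.4, had an unadjusted p under 0.05 (0.30 ± 0.13, higher in HSF-1-AID), where 0.921% of all genes did. The median strain difference was 0.01. The same comparisons at 16 h and 24 h share the libraries that chose the genes and are not tested: on ethanol the median strain difference was -0.01 at 16 h and -0.06 at 24 h, and on auxin it was 0.63 and 1.0. The fit on recovered reads (limma-voom) also called none in either test at 8 h.

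In the authors' deposited table of fold changes, whose contrast lies closest to HSF-1-AID on auxin minus the mean of the other 3 groups (correlation across genes 0.966, 0.994 and 0.985 at 8, 16 and 24 h), no gene of the 135 had an FDR under 0.05 at 8 h. At that time 0 of the 10974 genes in the authors' deposited table were higher at that FDR and 12 were lower. At 16 h 129 of 135 were higher in the authors' deposited table at an FDR under 0.05, where 25.2% of its genes were, and at 24 h 129 of 135, where 23.8% were. F13D11.4, F55G11.2, T16G1.6 and Y41G9A.5 missed that threshold at both times in the authors' deposited table. These tables share the libraries that chose the genes.

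The genes lay on all 6 chromosomes. Chromosome I held 27, II 26, III 25, IV 21, V 24 and X 12, which is 4.89%, 4.23%, 4.30%, 3.83%, 3.67% and 2.36% of the unnamed genes listed on each. Their median exon length was 1119 bp, beside 1253 bp over all 3457 unnamed genes, and their median coding length was 855 bp, beside 966 bp. A short reading frame was found in some: 19 of 135 (14.1%) had a coding length under 300 bp, beside 229 of 3457 (6.62%). The shortest were Y38F2AL.12, M02E1.3 and C53H9.4, with 42, 57 and 90 bp of annotated coding sequence. The median number of exons was 4, beside 5.

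Overlap with other genes bears on what was counted. The strand used in counting is not stated, so reads of genes that overlap on opposite strands may not have been told apart. Where genes overlap on the same strand, the strand does not separate their reads in any case. Another protein-coding gene on the same strand overlapped 21 of the 135 (15.6%), beside 7.64% of all unnamed genes, and one on the opposite strand overlapped 34 (25.2%), beside 24.0%. Overlapping partners on the same strand had a median difference of 0.46 at 16 h and 0.65 at 24 h. Of the 17 listed at both times, 8 met both thresholds, where 3.84% of all genes in both tables did. The count and the medians include genes of the 135 themselves, which met the thresholds by the choice. These are F45H11.8 with F45H11.11 and W02H5.2 with W02H5.19, each counted as the partner of the other. Partners of the other unnamed genes were not summarized. C53H9.4 lies within the gene egl-30, which encodes a G protein alpha subunit, and had 0.76 and 1.22 where egl-30 had 0.44 and 0.73. Partners on the opposite strand had medians of -0.13 and -0.05, and none of the 24 listed at both times met both thresholds. With a share of 3.84% over all genes in both tables, nothing is read from that absence. C01G10.9, for example, had 0.56 and 1.46, where ahsa-1, a co-chaperone gene on the other strand, had -0.21 and -0.11.

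Some of the genes are copies of each other. The 2 copies each of F07B7.1 and F07B7.2, which lie side by side at V:8828165-8831441 and at V:8870259-8873535, have identical reads in every library where they are listed. F07B7.2 had 29.7, 41.8 and 39.0 CPM in HSF-1-AID on auxin at 24 h, against 4.94, 13 and 12.9 CPM on ethanol. The 2 genes named B0393.8 on chromosome III differ by at most 1 read in any library, with 113 to 365 reads at 24 h. With identical copies counted once there are 133 genes, and the values of these copies are uncertain as to which copy they come from.

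Neighbours on the same strand were often higher too. C. elegans transcribes many adjacent genes of the same strand together as operons; operon membership was not analysed here. For 66 of the 135 genes, at least 1 protein-coding gene lay next to them on the same strand within 1000 bp and was listed, which made 76 pairs. These neighbours had a median depletion difference of 0.30 at 16 h and 0.39 at 24 h, and 21 of 76 (27.6%) met both thresholds. Neighbours that are both among the 135 are counted from both sides. The pairs also hold both copies of F07B7.1 and F07B7.2, which have identical reads. Beside other unnamed genes the neighbours had medians of 0.04 and 0.07, and 55 of 1603 (3.43%) met both thresholds. The share was 12 of 45 upstream and 9 of 31 downstream of the 135, against 28 of 852 upstream and 27 of 751 downstream of the other unnamed genes. With neighbours that are themselves among the 135 left out, 9 of 64 (14.1%) remained, beside 32 of 1580 (2.03%) treated in the same way. All these values come from the libraries that chose the genes and are given without a test.

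**Figure D5:**
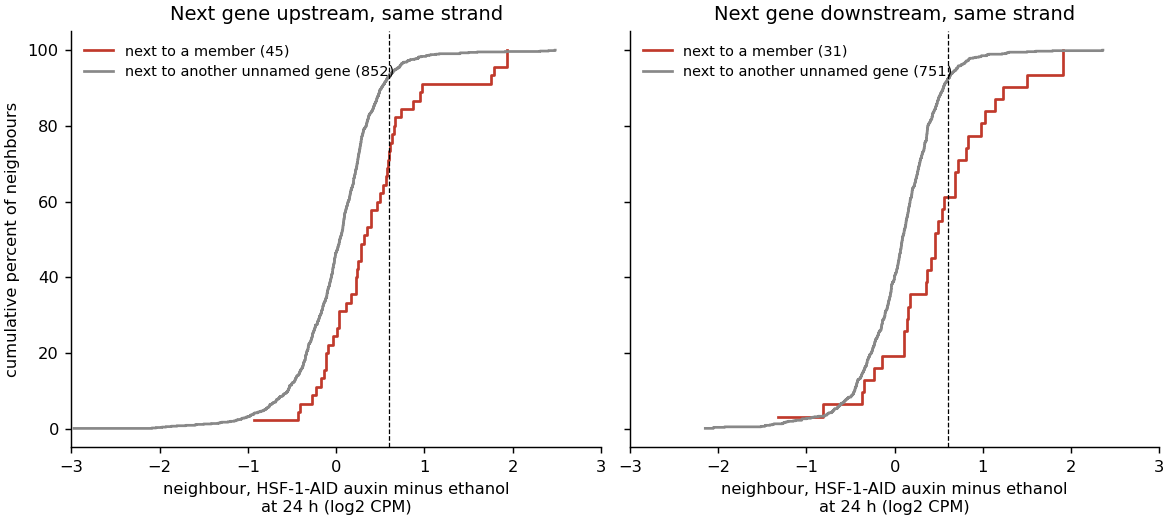
Cumulative percent of same-strand neighbours within 1000 bp (y axis) by their own difference between HSF-1-AID on auxin and on ethanol at 24 h in log2 CPM (x axis), upstream (left) and downstream (right), next to one of the 135 genes (red) or to another unnamed gene (grey); the dashed line is 0.6. The red curves lie to the right of the grey ones for most of their course, with 45 and 31 neighbours against 852 and 751.

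Both genes of some adjacent pairs were among the 135, so that both values meet the thresholds by the choice. C16C8.5, upstream of C16C8.4 by 288 bp on chromosome II, had 0.97 at 16 h and 1.76 at 24 h, where C16C8.4 had 0.68 and 1.23. C16A11.4 and C16A11.3, 387 bp apart, had 0.73 and 1.07 at 16 h and 0.95 and 1.5 at 24 h. Y94H6A.12 and Y94H6A.7, 138 bp apart, had 0.72 and 0.68 at 16 h and 0.83 and 0.97 at 24 h. Y54E2A.4 and Y54E2A.8, 195 bp apart, had 0.66 and 0.49 at 16 h and 0.61 and 0.68 at 24 h.

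The 9 neighbours outside the 135 that met both thresholds were herc-1, nfx-1, xpb-1, rpn-7, mon-2, ndua-12, mdt-6, sdz-8 and fbxa-106. The proteasome subunit gene rpn-7, 747 bp upstream of F49C12.11, had 0.58 at 16 h and 0.87 at 24 h. The Mediator subunit gene mdt-6, 38 bp downstream of Y57E12AL.6, had 0.64 and 0.98. The largest values of the 9 were those of sdz-8, 348 bp upstream of C55A6.6, with 1.44 and 1.79. The lowest neighbour at 24 h was mcm-4, a replication helicase gene 207 bp downstream of Y39G10AR.32, with -0.24 and -1.32. The genes given with values were chosen after these were seen.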

How the data were processed

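Whole-worm poly(A) RNA-seq of 44 libraries in 12 groups was taken as deposited. The submitters' processing notes name STAR, featureCounts and edgeR, and WBcel235 and ce11 as builds; the counting strand, tool versions and annotation are not given in the sources used here. The authors deposited, for each time, log2 CPM per library, whose values hold a prior count of 2 reads, and a table of fold changes with a p-value and an FDR for each gene. With the prior removed, 100% of values were whole reads within 0.05 of a read, and reads over the authors' effective library size gave the CPM printed here. Of 11430 identifiers, 11425 were in the Ensembl 115 annotation, which gave names, types and positions.

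Genes with at least 1 CPM in as many libraries as the smallest group were tested on the deposited log2 values in R 4.3.3 by limma 3.58.1, trend on, all 4 groups of a time in 1 model, with 12, 12 and 8 residual degrees of freedom at 8, 16 and 24 h. P-values are two-sided and were adjusted by Benjamini-Hochberg over 10971, 10173 and 10411 genes, with a threshold of 0.05. Replicate numbers were taken to pair libraries where the deviations of same-numbered libraries correlated above 0.1 in every pair, which held at 24 h (0.182 to 0.535) and not at 8 h or 16 h. The plan named count tests in edgeR and DESeq2 as alternatives; the deposited unit is log2, so limma-voom on the recovered reads stood in. That fit, the prior count of 0.5 and the choices without RefSeq-named genes or second copies were added after seeing the data. The members, the marker lists (germline, oocyte and eggshell, sperm, embryo, intestine, muscle, neuron, hypodermis and cuticle, pharynx, somatic gonad and coelomocyte) and the tests were chosen with earlier results of these data known. Genes were named by rule: the 12 largest differences at 24 h, the 5 largest at 16 h, 3 on each side of each threshold, the 5 highest per length, up to 5 called in each direction of each test and adjacent pairs; others are said to be chosen after their values were seen, and this holds for the genes with an unadjusted p under 0.05, the RefSeq-named genes, the overlaps, the copies and the shortest reading frames. Errors are SE of the fit. Counting error is wide below about 10 reads, and a fold change there is understated by the prior.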

Additional observations from a re-analysis of the deposited data

Results flagged for a closer look

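In each group of 4 libraries at 8 h and 16 h, the gap between the highest or lowest library and its nearest neighbour was set against the group's range, for the 12 largest genes, the genes called in a test and the median of all 135. Chance flags about 1 in 20 groups; 9 of the 100 groups examined stood out, and the median of the 135 genes was not among them. At 8 h T16G1.6 was low in HSF-1-AID auxin replicate 4 (gap 0.885 of the range; 2.70 against 3.60 to 3.71 log2 CPM) and high in TIR1-only auxin replicate 1 (0.855; 4.18 against 2.65 to 2.88), and F13D11.4 was high in HSF-1-AID auxin replicate 3 (0.876; 2.33 against 1.55 to 1.65). At 16 h T16G1.6 was low in HSF-1-AID auxin replicate 2 (0.830; 1.36 against 1.74 to 1.82). HSF-1-AID auxin replicate 1 at 16 h was high for M88.4 (0.834; 0.65 against 0.21 to 0.29) and C08G9.2 (0.871; 1.88 against 1.58 to 1.62), and R10F2.6 was high in HSF-1-AID ethanol replicate 2 (0.882; 2.43 against 2.16 to 2.19). In TIR1-only at 16 h, C38D9.2 was high in auxin replicate 3 (0.839; -0.96 against -1.56 to -1.46) and C08G9.2 in ethanol replicate 4 (0.872; -0.00 against -0.41 to -0.36).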

How the results depend on the processing

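For depletion at 8 h, 2 called genes became 6 with library quality weights, 0 without the 4 libraries numbered 4, 1 under a stricter choice of genes (0.6 and 0.8, 62 genes) and 4 under a looser one (0.3 and 0.5, 217 genes), and lay between 1 and 2 with any 1 library left out. For auxin in TIR1-only at 8 h, 3 became 0 with only the groups compared in the model and 0 without the libraries numbered 4, and lay between 0 and 4 with 1 library left out. At 16 h, 2 became 0 with the replicate block, 0 with a filter at 5 CPM, 0 with only the groups compared, 1 with voom on recovered reads and 1 under the stricter choice, and lay between 0 and 3 with 1 library left out. At 24 h, 0 became 3 with the replicate block and stayed 0 in each of the 6 fits without 1 library. The comparison of auxin effects and that of strains on ethanol at 8 h gave 0 called genes in each alternative run, with 0 also in each fit without 1 library, and the block changed no other count by over 1.5 times. At 16 h and 8 h replicate numbers did not pair the libraries. The causes were not tested. The number of genes chosen was 124 to 153 with 1 library left out, 140 by medians (125 of the 135 kept), 137 with a prior count of 0.5, 135 past the filter on low values and 126 without those that RefSeq names. Their median difference stayed within 0.58 to 0.66 at 16 h and 0.96 to 1.06 at 24 h. These choices kept the thresholds of 0.4 and 0.6, so a similar median is partly set by the thresholds. The edgeR and DESeq2 fits and a recomputed TMM scaling were not run. Few reads limit genes under 1 CPM, where a difference from the ethanol group is least precise.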
